A study of Rattus norvegicus with 4 samples.

Results

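Cholesterol synthesis loci are the listed noncoding transcripts that carry the name of 1 of 5 genes of sterol synthesis: Acat2, Hmgcs1, Hsd17b7, Sc4mol (now Msmo1) or Srebf2. All 7 transcript rows with such a name were kept and treated separately, out of 20524 rows in the tables. RNA sequencing profiled long noncoding RNAs (lncRNAs) in cortical astrocytes of newborn Wistar rats under 24 h old. The astrocytes grew on coverslips held apart above neurons, and the co-cultures had 48 h in normal oxygen before use. The control group (2 libraries) was untreated. The OGD group (2 libraries) spent 45 min in medium without glucose at 1% oxygen (oxygen-glucose deprivation, a form of ischemic preconditioning) and then 24 h in normal medium and air. The study compared these groups to find lncRNAs of ischemic tolerance. No transgene or deletion is named, and the labels do not say whether the replicates came from separate cultures, so the spread between libraries may be technical.

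Cells make cholesterol from acetyl-CoA through mevalonate, squalene and lanosterol, in a pathway controlled by the transcription factor SREBP-2, the product of Srebf2. When sterols in the endoplasmic reticulum run low, SREBP-2 is carried to the Golgi, cut free from the membrane and enters the nucleus, where it raises transcription of the synthesis enzymes. In the brain, which makes its own cholesterol, astrocytes synthesise it and pass it to neurons on lipoprotein particles. The rows described here are not the messenger RNAs of these genes. They are shorter transcripts classed as noncoding at the same genes, and because the strand setting of the read counting is not given in the sources used here, reads of the messenger RNA could be among their counts.

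The 5 genes lie on chromosomes 1, 2, 7, 13 and 16. Positions are given as the tables list them, without a build name. Srebf2.bSep08 (NONRATT026162.2) spans 20.2 kb on chromosome 7 from 123381591 to 123401810, with 783 bases of transcript. Acat2 has a pair of rows on chromosome 1. Acat2.eSep08 (NONRATT002149.2, 510 bases) lies from 47972764 to 47977406, and Acat2.gSep08 (NONRATT002182.2, 473 bases) from 54423184 to 54441501, a gap of 6.45 Mb. RefSeq lists an Acat2-like gene, Acat2l1, next to Tcp1 on the same chromosome, together with Acat2 pseudogenes, so which copy each row belongs to is uncertain. The Tcp1 row of these tables starts 53294 bases after Acat2.eSep08. Hmgcs1.cSep08 (NONRATT015031.2, 624 bases) lies on chromosome 2 from 52427659 to 52436381. Sc4mol.bSep08 (NONRATT011461.2) is an unspliced transcript of 414 bases on chromosome 16 from 26870224 to 26870637. Hsd17b7 also has a pair of rows, on chromosome 13. The unspliced Hsd17b7.dSep08 (NONRATT008934.2, 1028 bases) lies from 88289879 to 88290906, and the spliced Hsd17b7.cSep08 (NONRATT008935.2, 597 bases) from 88298499 to 88299300, 7592 bases further on. Of the 7 rows, 2 are named as unspliced, with a length equal to their whole span, and 5 as spliced. The spliced rows keep between 2.58% (Acat2.gSep08) and 74.4% (Hsd17b7.cSep08) of their span.

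The promoters of the genes are shown because promoters of sterol synthesis genes are known for sterol regulatory elements (SREs, which bind SREBP) beside CCAAT boxes (which bind NF-Y) and GC boxes (which bind Sp1). Each is the RefSeq window of assembly GRCr8, 250 bases before to 50 bases after the start, written 5′ to 3′ on the gene's strand, with capitals where a searched motif matched. They are promoters of the genes and need not be those of the noncoding rows.
Srebf2 promoter, chr7:115543057-115543356, plus strand: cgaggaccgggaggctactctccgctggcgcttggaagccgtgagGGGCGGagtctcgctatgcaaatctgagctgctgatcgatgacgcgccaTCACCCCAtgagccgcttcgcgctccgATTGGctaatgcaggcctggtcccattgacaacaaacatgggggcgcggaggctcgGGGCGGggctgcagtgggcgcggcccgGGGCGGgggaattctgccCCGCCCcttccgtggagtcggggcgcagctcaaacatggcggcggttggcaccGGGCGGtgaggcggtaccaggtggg
Acat2 promoter, chr1:50100590-50100889, plus strand: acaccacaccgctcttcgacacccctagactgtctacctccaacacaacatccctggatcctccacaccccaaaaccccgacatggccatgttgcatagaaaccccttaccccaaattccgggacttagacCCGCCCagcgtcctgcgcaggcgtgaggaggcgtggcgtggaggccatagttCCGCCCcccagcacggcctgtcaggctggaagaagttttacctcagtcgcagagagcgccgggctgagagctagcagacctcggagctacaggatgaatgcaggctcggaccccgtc
Hmgcs1 promoter, chr2:53382054-53382353, plus strand: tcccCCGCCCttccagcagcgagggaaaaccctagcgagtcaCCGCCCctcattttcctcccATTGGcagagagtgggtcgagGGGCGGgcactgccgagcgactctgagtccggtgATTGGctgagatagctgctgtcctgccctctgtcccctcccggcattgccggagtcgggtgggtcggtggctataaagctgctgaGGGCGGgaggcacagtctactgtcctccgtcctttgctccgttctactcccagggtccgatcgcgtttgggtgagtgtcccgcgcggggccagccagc
Msmo1 promoter, chr16:29746863-29747162, plus strand: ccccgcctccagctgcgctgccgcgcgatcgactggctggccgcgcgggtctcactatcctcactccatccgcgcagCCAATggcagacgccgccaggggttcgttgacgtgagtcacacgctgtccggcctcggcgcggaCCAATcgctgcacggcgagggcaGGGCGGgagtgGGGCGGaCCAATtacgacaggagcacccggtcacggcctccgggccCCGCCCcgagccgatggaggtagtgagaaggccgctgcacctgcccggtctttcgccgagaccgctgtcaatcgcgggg
Hsd17b7 promoter, chr13:84722705-84723004, minus strand: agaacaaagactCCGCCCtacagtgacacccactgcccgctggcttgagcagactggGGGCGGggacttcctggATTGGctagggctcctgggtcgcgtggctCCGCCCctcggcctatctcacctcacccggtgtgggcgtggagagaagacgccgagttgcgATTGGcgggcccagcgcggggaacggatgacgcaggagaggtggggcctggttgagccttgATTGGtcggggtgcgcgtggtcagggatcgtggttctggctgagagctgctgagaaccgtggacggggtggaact

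Motifs were searched on both strands, and no matches overlapped. The GC box GGGCGG matched in 5 of the 5 windows, compared with 33.1% of all 33469 windows of that length in the table. The CCAAT box CCAAT matched in 4 of the 5, at Hmgcs1, Hsd17b7, Msmo1 and Srebf2, compared with 37.5% of all windows. Acat2 alone had none. Hsd17b7 and Msmo1 had 3 CCAAT matches each, Hmgcs1 had 2 and Srebf2 had 1. The SRE letters TCACNCCAC matched in 0 of the 5 windows and in 1.12% of all windows. A shorter core, TCACCCCA, was added after the sequences were seen and matched at Srebf2, 156 bases before the start, and in 1.37% of all windows. The E-box CACGTG matched in 0 of the 5 and in 6.42% of all windows. The 5 windows were 61.0% to 71.0% G and C, and the median of all windows was 51.7%. Of 19 other synthesis genes with a window, 14 held a CCAAT box, 14 a GC box and 1 an E-box. The SRE letters and the shorter core matched in 0 of these 19. Only these exact letters were searched, so a window without a match may still hold an SRE written otherwise.

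**Figure D1:**
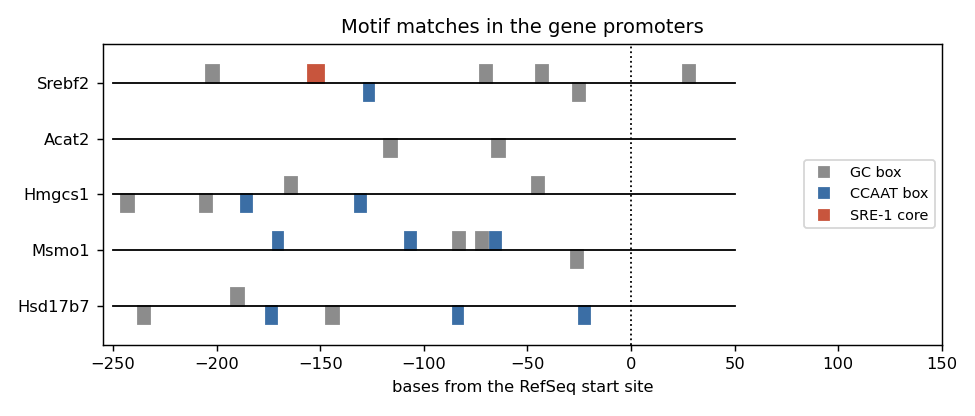
Motif matches in the RefSeq promoter windows of the 5 genes, by distance in bases from the start site (dotted line). Boxes above a line match the gene's strand and boxes below it the other strand. GC boxes (grey) appear at every gene, CCAAT boxes (blue) at every gene except Acat2, and the SRE-1 core (red) at Srebf2, 156 bases before the start.

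The lncRNA counts per library lay between 2513804 and 2646300, so a count of 10 stood for 3.60 to 4.11 CPM (counts scaled to a common library total, here with edgeR's TMM factors). The member rows held 1 to 93 counts in a library, and their precision is limited by counting as well as by the 2 libraries per group. Of the astrocyte marker names, 5 had rows (Aldoc, Gfap, Glul, Slc1a2 and Slc1a3). These summed to 34.0 and 50.4 CPM in the controls and to 33.3 and 63.8 CPM after OGD. Neuron names (3 genes) summed to 87.9 to 118 CPM, the fibroblast and meningeal name Col1a1 to 113 to 274 CPM, microglia and macrophage names (3 genes) to 10.8 to 43.1 CPM, and oligodendrocyte names (3 genes) to 7.84 to 17.0 CPM, each with overlapping groups. Endothelial and mural names (Abcc9 and Pecam1) stood at 3.60 and 7.52 CPM in control and 24.7 and 31.7 CPM after OGD. These too are noncoding rows at the marker genes. None of them was at 0 in all 4 libraries, and their part in the results below was not tested.

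The cholesterol synthesis loci were selected on their log2 fold changes between the control and OGD libraries, which were above 0 at every gene, so those values are given as a description, and counts of calls among them are printed beside the background only. Summed over the 7 rows, the level was 76.4 and 49.9 CPM in the controls (replicate 1, then 2) against 124 and 103 CPM with OGD. The mean was 63.1 ± 18.8 CPM in the controls against 113 ± 14.9 CPM with OGD (SD, n = 2 per group), a ratio of 1.80. In bulk RNA, more cells carrying a transcript and more transcript per cell cannot be told apart. The 2 groups did not overlap in this sum, but that rested on Acat2. Without Acat2.gSep08 the ratio was 1.58, and OGD replicate 2, at 76.5 CPM, lay next to control replicate 1, at 75.7 CPM. Without either Acat2 row the ratio was 1.53, and OGD replicate 2 (65.8 CPM) fell within the controls (47.1 and 69.9 CPM).

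**Figure D2:**
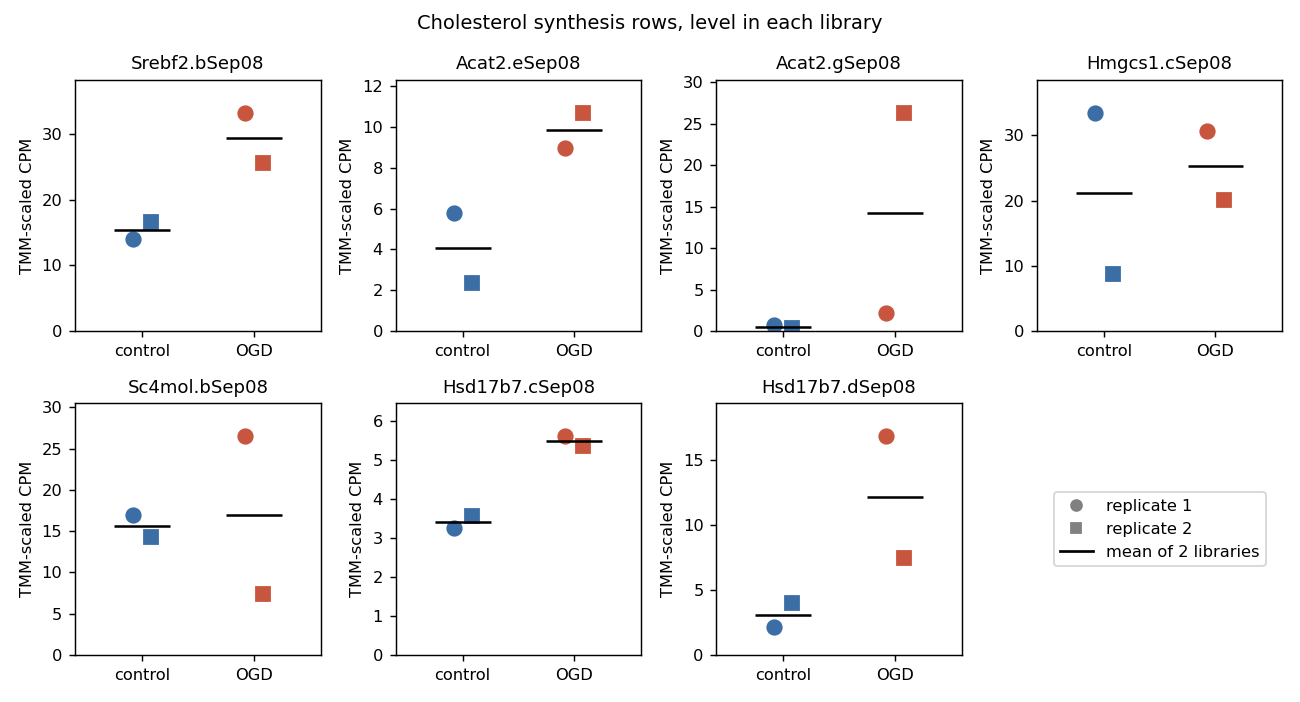
TMM-scaled CPM of each of the 7 rows in each library; circles are replicate 1, squares replicate 2, and bars the mean of 2 libraries. Both OGD libraries lie above both controls at Srebf2.bSep08, at both Acat2 rows and at both Hsd17b7 rows, whereas the groups overlap at Hmgcs1.cSep08 and Sc4mol.bSep08. Of all tested rows, 14.2% had both OGD libraries above both controls. The loci were selected on this contrast, so nothing is read from how many rows did so.

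Srebf2 encodes the regulator of the pathway, and its intron holds the microRNA miR-33, known to repress cholesterol efflux genes. Srebf2.bSep08 had 39 and 42 counts in the controls, against 89 and 62 with OGD, replicate 1 first as in all such pairs below. The controls were nearly equal and both OGD libraries stood above them. Its level was 15.3 ± 1.82 CPM in the controls against 29.4 ± 5.45 CPM with OGD (SD, n = 2). The fitted log2 fold change was 0.94 (SE 0.28), where the SE is approximate, taken from the fold change and edgeR's F statistic. Within replicate number 1 the ratio of OGD to control was 2.36 (95% interval 1.61 to 3.54), and within number 2 it was 1.53 (1.02 to 2.33). These intervals are exact binomial ones and, like all those below, cover counting error only. With any 1 library left out the log2 fold change lay between 0.75 and 1.11.

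Acat2, the cytosolic acetoacetyl-CoA thiolase, joins acetyl-CoA units in the first step toward cholesterol. Acat2.eSep08 had 16 and 6 counts in the controls, against 24 and 26 with OGD. The OGD libraries were close together and the controls were not, with control replicate 1 at 2.43 times the CPM of control replicate 2. The mean was 4.07 ± 2.40 CPM in the controls against 9.83 ± 1.23 CPM with OGD (SD, n = 2), a log2 fold change of 1.25 (SE 0.53). It stood at 2.03 without control replicate 1 and at 0.76 without control replicate 2. Within replicate number 1 the ratio was 1.55 (0.792 to 3.13), and within number 2 it was 4.50 (1.81 to 13.4).

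The other Acat2 row rested on 1 library. Acat2.gSep08 had 2 and 1 counts in control, 6 in OGD replicate 1 and 64 in OGD replicate 2. OGD replicate 2 therefore stood at 26.3 CPM and the other 3 libraries between 0.396 and 2.24 CPM. Summed over the groups and scaled by library total, OGD was 24.2 times control (95% interval 7.95 to 120), and 3.96 times without OGD replicate 2. Within replicate number 1 the ratio was 3.11 (0.556 to 31.5). With fewer than 2 libraries at the filter's minimum of 3.82 unscaled CPM, this row was not among those fitted. The pair of rows under the name Acat2 thus differed in pattern: Acat2.eSep08 had nearly equal counts in the OGD libraries, and Acat2.gSep08 did not.

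Hmgcs1, the cytosolic HMG-CoA synthase, condenses acetoacetyl-CoA with acetyl-CoA just before the step of HMG-CoA reductase. Hmgcs1.cSep08 had 93 and 22 counts in the controls, against 82 and 49 with OGD. The groups overlapped, and the highest and the lowest library were both controls. The replicate 1 library was the higher one in each group, by 3.85 times in control and 1.52 times after OGD. Means were 21.1 ± 17.5 and 25.4 ± 7.39 CPM (SD, n = 2). The log2 fold change of 0.26 (SE 0.70) lay within its error, and turned to -0.40 without control replicate 2 and to -0.049 without OGD replicate 1. Within replicate number 1 the ratio was 0.913 (0.670 to 1.24) and within number 2 it was 2.32 (1.37 to 4.02).

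Sc4mol, now Msmo1, encodes a sterol methyl oxidase that acts after lanosterol, in a demethylation of the sterol ring. Sc4mol.bSep08 had 47 and 36 counts in the controls, against 71 and 18 with OGD. Both controls lay between the OGD libraries, 1 of which was the highest and the other the lowest. Means were 15.6 ± 1.90 CPM in the controls against 17.0 ± 13.5 CPM with OGD (SD, n = 2), with a log2 fold change of 0.12 (SE 0.65). Within replicate number 1 OGD was at 1.56 times control (1.07 to 2.31), and within number 2 at 0.520 times (0.278 to 0.940). The 2 replicate numbers therefore pointed in opposite directions, and the log2 fold change was -1.05 without OGD replicate 1.

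Hsd17b7 encodes a reductase of keto groups that acts with Msmo1 and Nsdhl in the same demethylation, and can also reduce estrone. The unspliced row Hsd17b7.dSep08 had 6 and 10 counts in the controls, against 45 and 18 with OGD. Both OGD libraries stood above the controls, with OGD replicate 1 at 2.27 times the CPM of OGD replicate 2. Means were 3.06 ± 1.27 and 12.1 ± 6.64 CPM (SD, n = 2). Its log2 fold change of 1.98 (SE 0.62) was the largest of the fitted member rows, and was 1.29 without OGD replicate 1. Within replicate number 1 the ratio was 7.77 (3.30 to 22.3) and within number 2 it was 1.87 (0.819 to 4.54).

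The spliced row of the same gene differed less. Hsd17b7.cSep08 had 9 and 9 counts in the controls, against 15 and 13 with OGD. Replicates were close in both groups, at 3.40 ± 0.226 CPM in the controls against 5.47 ± 0.177 CPM with OGD (SD, n = 2). The log2 fold change was 0.68 (SE 0.39). Both within-number intervals included 1, with ratios of 1.73 (0.708 to 4.47) and 1.50 (0.594 to 3.98). The unspliced row had 6 and 10 counts beside 9 and 9 of the spliced one in the controls. With OGD it had 45 beside 15 in replicate 1 and 18 beside 13 in replicate 2. Per length (FPKM, fragments scaled by row length and library total), the unspliced row was above the spliced one in OGD replicate 1 alone. It stood there at 1.76 against 1.01 FPKM, and in OGD replicate 2 at 0.700 against 0.870 FPKM.

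**Figure D3:**
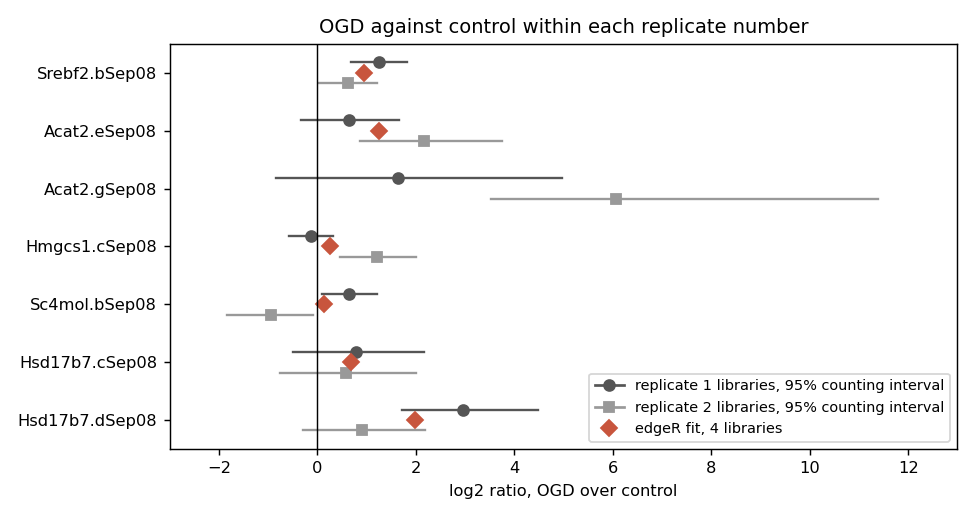
Log2 ratio of OGD to control for each row within replicate number 1 (circles) and number 2 (squares), with 95% counting intervals, and the fitted log2 fold change over 4 libraries (diamonds; not fitted for Acat2.gSep08). Srebf2.bSep08 is the row whose 2 intervals both lie above 0, and Sc4mol.bSep08 has intervals on opposite sides of 0.

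Within replicate number 1 the ratio was below 1 at Hmgcs1.cSep08. Within number 2 it was below 1 at Sc4mol.bSep08, as was its counting interval. Srebf2.bSep08 was the row for which the interval lay above 1 in both numbers. These ratios use the contrast by which the loci were selected, and the share of all tested rows with such ratios was not computed. Nothing is therefore read from how many member rows lay above 1.

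Of the 7 rows, 6 passed edgeR's filter on low counts. Of these, Acat2.eSep08 and both Hsd17b7 rows reached its minimum in both OGD libraries and in at most 1 control, so they passed through the group in which they were higher. In edgeR's quasi-likelihood test of 10892 rows, 0 of the 6 passed a Benjamini-Hochberg adjusted p of 0.05, beside 0.00918% of all tested rows; DESeq2 also called 0 of them. At an unadjusted p under 0.05 there were 2, beside 2.68% of all. Both OGD libraries lay above both controls at 4 of the 6, beside 14.2% of all tested rows. The log2 fold change was above 0 at 6 of the 6, beside 49.4% of all, and above 1 at 2, Acat2.eSep08 and Hsd17b7.dSep08, beside 3.18%. The median log2 fold change was 0.81 for the 6 and -0.0046 for all tested rows. Because the loci were proposed with this contrast in view, nothing is read from these counts.

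**Figure D4:**
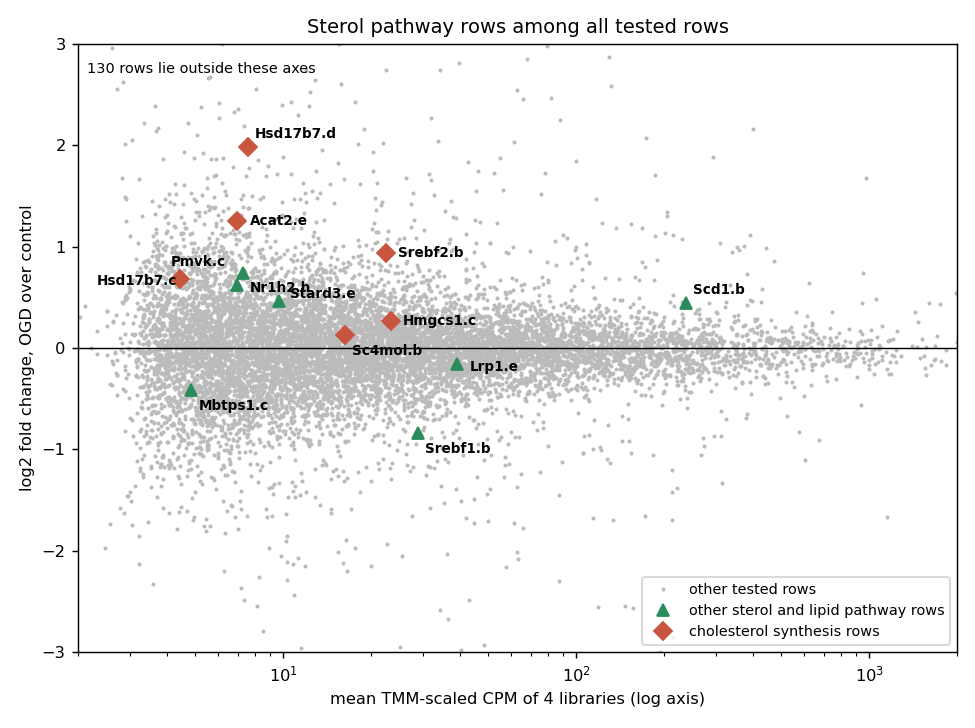
Log2 fold change after OGD against mean TMM-scaled CPM of 4 libraries (log axis) for tested rows, with 130 of 10892 rows outside the axes. The 6 fitted cholesterol synthesis rows (red diamonds) lie between 0.12 and 1.98, and the 7 other sterol and lipid pathway rows (green triangles) between -0.84 and 0.74.

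Per length, the order of the rows was led by Sc4mol.bSep08, at 4.12 ± 2.17 FPKM (fragments scaled by row length and library total; SD, n = 4 libraries). Hmgcs1.cSep08 followed at 3.93 ± 2.11, Srebf2.bSep08 at 2.94 ± 1.21, Acat2.gSep08 at 1.54 ± 2.58, Acat2.eSep08 at 1.41 ± 0.724, Hsd17b7.dSep08 at 0.765 ± 0.689 and Hsd17b7.cSep08 at 0.764 ± 0.211 FPKM. Each pair of neighbours in that order overlapped in range over the 4 libraries. Hsd17b7.cSep08, with at most 1.01 FPKM in a library, lay wholly below the rows of Sc4mol (1.74 or more), Hmgcs1 (1.34 or more) and Srebf2 (2.00 or more). The median of all 20524 rows was 0.683 FPKM, and between 52.3% and 87.0% of rows had a lower mean than the member rows. In control alone Acat2.gSep08 was the lowest, at 0.125 ± 0.0631 FPKM (SD, n = 2). After OGD it stood at 2.96 ± 3.46 FPKM (SD, n = 2), a spread wider than its mean.

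**Figure D5:**
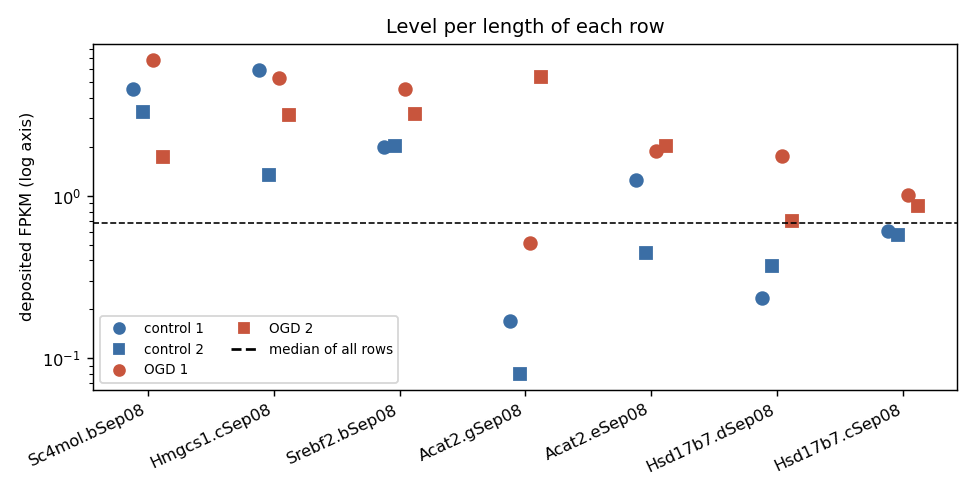
Deposited FPKM (log axis) of the 7 rows in each library, ordered by the mean of 4 libraries, with the median of all rows (0.683) dashed. Sc4mol.bSep08, Hmgcs1.cSep08 and Srebf2.bSep08 lie above the dashed line in every library, and the libraries of Acat2.gSep08 spread from 0.0802 to 5.41.

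The surroundings of the rows were read within 20 kb, a distance chosen after the tables were seen. The row swerla.aSep08 lies 196 bases from Hsd17b7.dSep08 on chromosome 13, at lower coordinates, from 88288691 to 88289682. It had 82 and 75 counts in the controls, against 135 and 142 with OGD, or 29.6 ± 0.0990 and 54.4 ± 5.68 CPM (SD, n = 2). Its log2 fold change of 0.88 (SE 0.23) did not pass edgeR's adjusted threshold (adjusted p = 1.00, unadjusted p = 0.0155). On the other side of the Hsd17b7 rows, 12338 bases beyond Hsd17b7.cSep08, sweyla.aSep08 was far more abundant and nearly level between groups, at 1245 ± 495 CPM in the controls against 1232 ± 517 CPM with OGD (SD, n = 2). Its counts divided by replicate number, with 2482 and 2322 in the number 1 libraries and 4029 and 3883 in the number 2 libraries. The next row, swoyla.aSep08, divided likewise, with 724 and 634 against 1147 and 1021 counts.

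At Srebf2, the row sysoy.aSep08 lies 4660 bases away. It measured 30.9 ± 0.0805 CPM in the controls against 28.5 ± 0.803 CPM with OGD (SD, n = 2; log2 fold change -0.12, SE 0.22). Its OGD libraries were thus just below the controls, whereas those of Srebf2.bSep08 were above. Beside Acat2.eSep08, fleyfly.aSep08 (271 bases away) had 13 and 4 counts in the controls, against 11 and 11 with OGD, and MSTRG.515.1 (9895 bases away) had 49 and 31, then 64 and 46. At both of these rows, as at Acat2.eSep08, control replicate 2 was the lowest library. The other listed rows within that distance did not show this. The row snoflee.aSep08 (16219 bases away) had 3 and 7 counts, then 7 and 14, and sneeflee.aSep08 (8966 bases away) had 143 and 105, then 104 and 88, with both OGD libraries below the controls.

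Acat2.gSep08 overlaps a pair of listed rows on chromosome 1. The first, glufly.aSep08, had 60 and 62 counts in the controls, against 50 and 87 with OGD, and the second, AABR07001634.1, had 39 and 57, then 32 and 48. Neither showed a difference as large as the 64 counts against 6 that set OGD replicate 2 apart at Acat2.gSep08. The row glufly.aSep08 was also highest in OGD replicate 2, at 35.8 CPM against 18.7 CPM in OGD replicate 1, whereas AABR07001634.1 was highest in control replicate 2. Reads shared between overlapping rows could not be told apart. Hmgcs1.cSep08 overlaps sershoy.aSep08, which had 1 count in all 4 libraries together. No listed row lies within that distance of Sc4mol.bSep08.

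Of 71 other genes listed for sterol and lipid metabolism, 16 had rows (18 rows), and 7 of these rows passed the filter. By edgeR 0 of the 7 rows were higher and 0 lower at an adjusted p of 0.05 over all tested rows, DESeq2 called 0, and 0 had an unadjusted p under 0.05. Their log2 fold change was above 0 at 4 and below 0 at 3. The median of 0.44, beside -0.0046 for all tested rows, turned to -0.056 without control replicate 1 and to -0.021 without OGD replicate 2.

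Among the enzymes, Pmvk, which phosphorylates mevalonate phosphate, had 17 and 12 counts in the controls, against 28 and 19 with OGD. Its log2 fold change was 0.74 (SE 0.38). The rows at Acly (6 and 5 counts, then 7 and 10), Tm7sf2 (12 and 6, then 10 and 5), Lbr, Ebp and Acat1 had too few counts for the test. The row at Scd1, named for the desaturase that makes monounsaturated fatty acids, had 320 and 722 counts in the controls, against 467 and 903 with OGD. In both groups its number 2 library was the higher one, and its log2 fold change was 0.44 (SE 0.60).

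Among the regulators, Srebf1, which encodes the related factor of fatty acid synthesis, had 28 and 162 counts in the controls, against 27 and 76 with OGD. Its log2 fold change of -0.84 (SE 1.04) was smaller than its error, and its values followed the replicate number. Nr1h2, the gene of the oxysterol receptor LXR beta, had 15 and 14 counts, then 19 and 24 (log2 fold change 0.63, SE 0.37). Mbtps1, which encodes the first protease that cuts SREBP, had 10 and 19, then 8 and 13 (-0.41, SE 0.59). Mbtps2, the gene of the next protease, had 28 counts in control replicate 1 and 2 or 3 in each other library.

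For uptake and transport, Lrp1, a receptor for apolipoprotein E, measured 41.3 ± 5.41 CPM in the controls against 37.0 ± 5.20 CPM with OGD (SD, n = 2; log2 fold change -0.16, SE 0.25). Stard3, a cholesterol carrier of late endosomes, had 32 and 12 counts, then 35 and 23 (0.46, SE 0.54). Abca1, the exporter that loads cholesterol onto lipoproteins, had 15 and 9 counts in the controls, against 5 and 3 with OGD, too few for the test. The rows at Lipa, from the same list of efflux, storage and turnover genes, also had too few and were not lower with OGD. Lipa.cSep08 had 2 and 1 counts, then 5 and 4, and Lipa.dSep08 had 5 and 8, then 8 and 9.

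The rows most like each member were taken as those with a gene symbol and the smallest root mean square difference in log2 CPM over the 4 libraries, after centring each row on its mean. This likeness is a description over 4 libraries among 3459 candidates. Nearest to Srebf2.bSep08 were rows at Pusl1 (0.057), Sbf1 (0.093) and Fam134c (0.099). Pusl1 had 15 and 17 counts in the controls, against 37 and 28 with OGD. The nearest to Acat2.eSep08 were Vcp (0.070), Ctage5 (0.095) and Os9 (0.099), with Os9 at 31 and 14, then 40 and 47 counts. Hmgcs1.cSep08 was nearest to Mterfd3 (0.088), Cenpl (0.098) and Usp52 (0.12), and Mterfd3 had 68 and 14, then 61 and 31 counts.

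Sc4mol.bSep08 was nearest to RGD1308114, now Sugct (0.045), and Ctxn3 (0.048). Ctxn3 had 78 and 64 counts in the controls, against 114 and 32 with OGD. Hsd17b7.dSep08 was nearest to Maf1 (0.12), Ttc9c (0.13) and Samd14 (0.27), and Maf1 had 6 and 8, then 36 and 15 counts. Within 0.2 of Hsd17b7.dSep08 lay 2 candidates, the fewest among the fitted member rows. There were 9 for Hmgcs1.cSep08, 12 for Acat2.eSep08, 17 for Sc4mol.bSep08 and 52 for Srebf2.bSep08. Hsd17b7.cSep08 had 275 candidates within 0.2, led by Slc4a2 (0.026), Tbce (0.027) and Kctd1 (0.032).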

How the data were processed

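Each of the 4 libraries came as 1 table with the same 20524 transcript rows, in which the authors deposited whole-number read counts and FPKM values. HISAT2, StringTie and the mouse build mm9 are named in the submitters' processing notes, whereas the tables list 20 autosomes and rat identifiers, so coordinates are printed without a build; no source used here gives the counting program or its strand setting. FPKM served only for levels per length and to recover library totals (24934040 to 26371055, of which lncRNA counts made up 9.98% to 10.6%).

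Counts were tested per row, without summing by name, with edgeR 4.0.16 in R 4.3.3 (filterByExpr, TMM over full lncRNA totals, quasi-likelihood F test on group alone, Benjamini-Hochberg adjustment over 10892 rows). Gene names came from the Ensembl column or the AceView name, and symbols from RefSeq (GRCr8); all 5 gene names matched, Sc4mol as a former name of Msmo1, and all 5 had a promoter window. Alternatives were DESeq2 1.42.0, other scalings and filters, rows summed by name, a block on replicate number, and leaving out each library. The steps were tested on simulated data. There the adjusted threshold was passed by 0 of 50 rows changed 2-fold, 10 of 50 changed 4-fold and 47 of 50 changed 16-fold. The simulated spread between replicates followed edgeR's trend over all rows, so rows with a wider spread were not simulated. In the data themselves Gtf3c1.gSep08 had a log2 fold change of -7.56, yet 0 rows were called lower. A row without a call may therefore still have changed, by a small or a large amount. The members and lists were chosen with earlier results of these data known. Named are all member rows, the tested rows of the pathway list and the 3 rows most like each fitted member row (pseudocount 1 CPM); 1 of the latter is not reported here. Neighbouring rows, the TCACCCCA core and the pathway rows with too few counts were added after values were seen. Figures were drawn with matplotlib 3.10.9.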

Additional observations from a re-analysis of the deposited data

How the results depend on the processing

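In edgeR's test per row, 1 of all rows passed the adjusted threshold. DESeq2 called 71, totals implied by FPKM gave 8, summing rows by name 8, and an unadjusted p under 0.05 gave 292; the replicate number as a block gave 0 and leaving out any 1 library gave 0. The count of member rows past the threshold stayed at 0 under every alternative run except an unadjusted p under 0.05, which gave 2, and the count of other pathway rows stayed at 0 throughout. Of 72 values of the 6 fitted member rows under alternatives, 68 kept direction and side and 4 changed sign: Hmgcs1.cSep08 lay between -0.40 and 1.55 with a library left out, and Sc4mol.bSep08 between -1.05 and 0.76, and at -0.087 with the replicate number as a block. What the number marks is not in the labels; libraries that share it deviated from their group means with a correlation of 0.196 across rows; the block changed no other direction or call of a member row. Summed by name, the Acat2 rows had a log2 fold change of 2.36 and the Hsd17b7 rows 1.45. The Acat2 sum includes the 64 counts of Acat2.gSep08 in OGD replicate 2, joins rows that may belong to different gene copies, and compares with 1.25 for Acat2.eSep08 alone. The log2 ratio of summed member CPM was 0.84, between 0.57 and 1.19 with a library left out, and 0.66 without Acat2.gSep08, a setting chosen after seeing the data. The ratio at Acat2.gSep08 lay between 3.96 and 46.5 with a library left out, and the median log2 fold change of the pathway rows between -0.056 and 0.58. The cause was not tested, although leaving out a library leaves only 3. Depth limits the member rows, since a count of 3 corresponds to 1.08 to 1.23 CPM.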
